A study of Arabidopsis thaliana with 3 samples.

Results

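A set of 40 nuclear genes that encode photosystem and light-harvesting antenna proteins was followed in immature inflorescences of Arabidopsis thaliana. The genes were taken by locus identifier and comprise 6 LHCA genes (antenna of photosystem I), 14 LHCB genes (antenna of photosystem II), 11 PSA genes (subunits of photosystem I) and 9 PSB genes (subunits of photosystem II). They are 40 of the 26810 genes listed in any library, and all 40 were listed above 0 in all 3 libraries.

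All libraries came from dcl1-7 plants, which carry a partial loss-of-function allele of DCL1, the Dicer that releases microRNAs from their precursors. The plants were about 4 weeks old and grew under a day of 16 h light with 8 h darkness. There were 2 polyA RNA-seq libraries and 1 library of GMUCT, a method that sequences the 5′ ends of polyadenylated RNAs lacking a cap, the ends that decapping or cleavage leaves. Because every library shares the mutant genotype, the comparison available is between mRNA level and uncapped ends, and the effect of dcl1-7 itself was not analysed here.

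Photosystems are chlorophyll-protein complexes of the thylakoid membrane whose reaction centres are encoded largely in the chloroplast, while the proteins studied here are made in the cytosol and imported. Antenna proteins collect light and pass its energy to the reaction centres. Both antenna and subunit genes are known to be transcribed at high levels in green tissue under light, and young flower buds carry green sepals.

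The LHCB1 family holds 5 gene copies without introns, and its sequences are shown first because they decide how far a read of 50 nt can be assigned to a copy. LHCB1.2, LHCB1.1 and LHCB1.3 lie next to each other on chromosome 1, and LHCB1.5 and LHCB1.4 lie next to each other on chromosome 2. The coding sequences of the chromosome 1 copies were 95.65% to 96.39% identical to each other, and LHCB1.4 and LHCB1.5 were 91.42% identical. Between the chromosomes the identity ranged from 86.69% to 90.42%. The lines below give the coding stretch of 50 bases, the length of a read, in which LHCB1.4 and LHCB1.5 differ most from LHCB1.3, read 5′ to 3′ on the coding strand from the RefSeq TAIR10.1 genome. Capitals mark bases that differ from LHCB1.3.
LHCB1.3 (chr1:10478312-10478361, plus strand): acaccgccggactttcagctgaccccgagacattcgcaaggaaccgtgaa
LHCB1.1 (chr1:10475602-10475651, minus strand): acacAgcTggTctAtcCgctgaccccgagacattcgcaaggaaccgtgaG
LHCB1.2 (chr1:10472956-10473005, minus strand): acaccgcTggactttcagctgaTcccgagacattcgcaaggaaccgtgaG
LHCB1.4 (chr2:14525056-14525105, plus strand): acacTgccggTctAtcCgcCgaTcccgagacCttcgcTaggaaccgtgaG
LHCB1.5 (chr2:14523229-14523278, minus strand): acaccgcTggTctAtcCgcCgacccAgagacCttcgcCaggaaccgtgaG

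In this stretch LHCB1.4 and LHCB1.5 each differ from LHCB1.3 at 9 positions, LHCB1.1 at 6 and LHCB1.2 at 3. Elsewhere the copies are harder to separate. Of all windows of 50 bases in each transcript, 20.5% of LHCB1.1, 10.6% of LHCB1.2, 17.0% of LHCB1.3, 13.7% of LHCB1.4 and 17.3% of LHCB1.5 occur unchanged in the transcript of another gene. The share was 20.2% for LHCB2.1 and 19.8% for LHCB2.2, whose main partners are each other. It was 8.76% for LHCA2 and 0 for the other 32 genes. How the authors counted reads with several matches is not given in the sources used here, so the split among these 8 genes is uncertain, and sums over a family are given beside single copies.

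The promoters of the divergent LHCB1 pairs are shown because each pair shares an intergenic region while the levels of its copies differ. The annotated starts of LHCB1.5 and LHCB1.4 face away from each other across 1038 bases, and those of LHCB1.1 and LHCB1.3 across 1915 bases, with no annotated gene between them. Each line gives the 250 bases before the annotated start in the RefSeq TAIR10.1 genome, 5′ to 3′ towards the gene. Capitals mark matches, on either strand, to the CCAAT box (CCAAT), the TATA box (TATAAA), the I-box (GATAAG), the G-box (CACGTG) or 2 sites of the clock factor CCA1 (AAAAATCT and AACAATCT), none of which contains another.
LHCB1.5 (chr2:14523569-14523818, minus strand): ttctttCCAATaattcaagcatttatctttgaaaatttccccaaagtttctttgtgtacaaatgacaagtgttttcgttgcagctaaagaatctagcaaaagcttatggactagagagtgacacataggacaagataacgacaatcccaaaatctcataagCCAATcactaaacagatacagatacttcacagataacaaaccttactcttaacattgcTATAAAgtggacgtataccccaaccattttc
LHCB1.4 (chr2:14524357-14524606, plus strand): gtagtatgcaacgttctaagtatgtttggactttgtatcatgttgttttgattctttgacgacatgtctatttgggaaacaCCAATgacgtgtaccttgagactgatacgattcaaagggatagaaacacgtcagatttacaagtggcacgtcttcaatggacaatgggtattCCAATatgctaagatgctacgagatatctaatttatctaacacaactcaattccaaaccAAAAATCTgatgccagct
LHCB1.1 (chr1:10475970-10476219, minus strand): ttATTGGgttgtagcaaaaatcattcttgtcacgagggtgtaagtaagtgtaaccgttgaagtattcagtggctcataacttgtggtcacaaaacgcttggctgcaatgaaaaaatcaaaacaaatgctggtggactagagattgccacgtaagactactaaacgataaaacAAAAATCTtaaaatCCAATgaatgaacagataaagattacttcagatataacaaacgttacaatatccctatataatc
LHCB1.3 (chr1:10477635-10477884, plus strand): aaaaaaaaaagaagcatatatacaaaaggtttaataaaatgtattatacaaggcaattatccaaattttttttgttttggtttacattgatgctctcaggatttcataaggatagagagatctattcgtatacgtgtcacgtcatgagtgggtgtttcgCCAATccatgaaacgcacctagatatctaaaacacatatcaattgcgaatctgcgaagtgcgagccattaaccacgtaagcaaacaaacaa

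Among these 4 windows every one held CCAAT, and the window of LHCB1.5 alone held TATAAA. Across all 40 genes CCAAT was present in 26 of the windows, a share of 65.0%, against 46.0% of 27443 protein-coding promoters of the same length. It was present in 13 of 14 LHCB and 5 of 6 LHCA windows, in 6 of 11 PSA windows and in 2 of 9 PSB windows. The G-box was found in 8 of the 40 windows, against 6.49% of all promoters, the I-box in 9 (22.5%, against 12.3%), and TATAAA in 18 (45.0%, against 47.3%). The CCA1 sites were rarer, with AAAAATCT in 5 windows (12.5%, against 6.69%) and AACAATCT in 1 (2.50%, against 1.83%). These are letter matches near annotated starts and say nothing of binding.

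Values are given in RPKM, a read number scaled by the authors to gene length and library size. In RNA-seq this lets levels of different genes be set beside each other per length. GMUCT reads 5′ ends, whose number need not grow with gene length. GMUCT levels of genes of unlike length are therefore less comparable, and this limit applies to GMUCT ranks, shares and ratios between genes. Where 3 levels follow each other they are RNA-seq library 1, RNA-seq library 2 and GMUCT, and a signed number in parentheses after them is the log2 ratio between the assays, GMUCT over RNA-seq. In bulk tissue a lower value can mean fewer cells of a type or less RNA per cell. Between the assays, a lower GMUCT value can also mean fewer uncapped ends per mRNA or a difference between the methods. These cannot be told apart. The spacing of low RPKM values put the depth near 18600000 reads in RNA-seq library 1, 8700000 in library 2 and 19500000 in GMUCT, which puts at least 264 reads behind each of the 40 genes in every library. Only 35.2% to 38.3% of low values lay within 0.1 of a whole read, so these depths are approximate. All 6 floral identity markers were above 0 in every library, with summed levels of 418.65, 417.94 and 353.96 RPKM. In GMUCT AP3 lay above both RNA-seq libraries, and LFY, AP1, PI, AG and SEP3 lay below both. AP3 had 89.3, 89.2 and 166 RPKM, and SEP3 had 136, 141 and 50.5 RPKM. LFY was low throughout, at 1.00, 1.63 and 0.670 RPKM. The 5 late pollen markers summed to 411.01, 421.69 and 188.84 RPKM, with VGD1, LAT52 and TUA1 below both RNA-seq libraries in GMUCT and AGP6 and AGP11 above both. VGD1 had 234, 260 and 37.7 RPKM, and AGP6 had 65.7, 53.1 and 78.8 RPKM. The 2 root tip markers summed to 0.0600, 0.130 and 0.940 RPKM, with SMB at 0 in both RNA-seq libraries. The senescence marker SAG12 had 2.02, 1.67 and 17.4 RPKM. The part of these differences in the results below was not tested.

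The 40 genes were among the most abundant mRNAs of the inflorescence. In RNA-seq they made up 6.34% and 6.36% of the summed RPKM of all genes in libraries 1 and 2, and in GMUCT 4.18%. Of the 100 most abundant genes 22 belonged to the set in RNA-seq and 10 in GMUCT. A mean of at least 1000 RPKM was reached by 10 of the 40 genes in RNA-seq and by 7 in GMUCT, with 5 in common. The antenna genes carried most of the mRNA. LHCA and LHCB together held 72.8% and 71.6% of the RPKM of the set in the RNA-seq libraries and 55.1% in GMUCT. The PSB share went the other way, from 13.3% and 13.9% to 27.7%, and the PSA share from 13.9% and 14.5% to 17.3%. A share also rises where the rest of the set falls. The PSB genes summed to 4015, 4352 and 6342 RPKM and the PSA genes to 4206, 4520 and 3962 RPKM. The PSB class did not move as a whole, with a median log2 ratio of 0.03. Its highest GMUCT levels were those of PSBR (2172 RPKM), PSBO1 (2035 RPKM) and PSBY (941 RPKM).

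**Figure D1:**
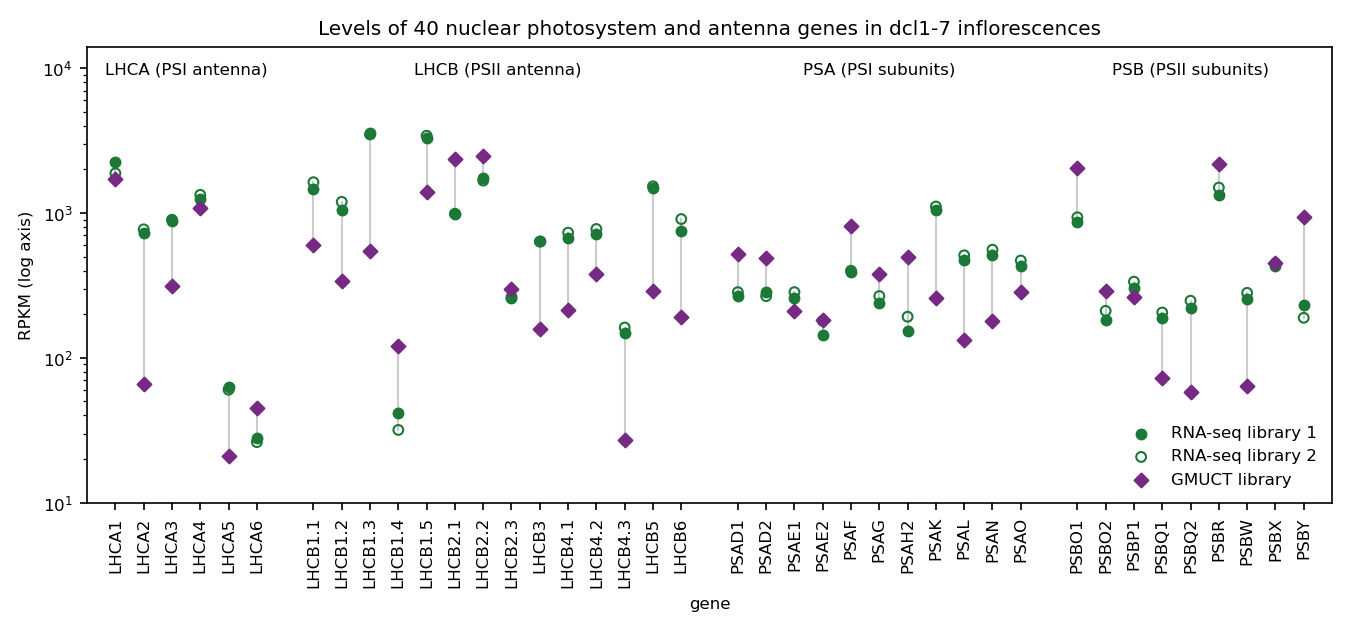
Level of each of the 40 genes in RPKM on a log axis, with filled and open green circles for RNA-seq libraries 1 and 2 and purple diamonds for the GMUCT library. The circles of a gene lie close together, whereas the diamond lies outside them for all 40 genes, below for most antenna genes and on either side for photosystem subunits.

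The RNA-seq libraries were close for these genes. LHCB1.4 was the furthest apart, at 41.5 and 31.8 RPKM, a difference of 0.38 on the log2 scale. Library 2 had the higher value for 31 of 40 genes, with a median log2 difference of library 1 minus library 2 of -0.09. Across the 40 genes, which are not independent replicates, Pearson's r was 0.996 between the RNA-seq libraries and 0.635 between GMUCT and the RNA-seq mean (Spearman's rho 0.994 and 0.607).

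Uncapped ends were compared with mRNA levels to ask which members have more or fewer of them than their abundance. Of the 40 genes 20 passed the test as lower in GMUCT than in RNA-seq, 11 passed as higher, and 9 did neither. The test was limma on log2(RPKM + 0.5) with Benjamini-Hochberg adjustment over 20214 genes at 0.05, and it called 36.9% of all tested genes lower and 32.1% higher, 69.0% in all, so being called is common. The median log2 ratio of GMUCT to RNA-seq was -0.51 for the 40 genes and -0.07 for all tested genes. By size alone, GMUCT lay at least 2-fold below both RNA-seq libraries for 18 of the 40 genes and at least 2-fold above both for 6, where 17.3% and 19.9% of all tested genes did so. GMUCT lay below both RNA-seq libraries by any amount for 24 of the 40 genes and above both for 16, against 50.2% and 45.0% of all tested genes.

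The limma test has 1 residual degree of freedom and takes the spread of the lone GMUCT library from the RNA-seq pair. Each p-value thus rests on how much the RNA-seq libraries vary and holds no measure of the spread of GMUCT. Since the labels do not state whether the RNA-seq pair came from different plants, that variation may be technical.

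The median log2 ratio by class was -1.54 for the 14 LHCB genes, -0.88 for the 6 LHCA genes, 0.18 for the 11 PSA genes and 0.03 for the 9 PSB genes. With the trend of the ratio with transcript length removed, the PSA and PSB medians took the opposite sign, at -0.56 and -0.39, while those of LHCB and LHCA were -1.66 and -1.04. Among LHCB genes there were 10 lower, 2 higher and 2 uncalled, and among LHCA genes 3, 1 and 2. PSA genes divided into 4 lower, 5 higher and 2 uncalled, and PSB genes into 3 of each. The classes were not compared by a test, because genes are not replicates of a class.

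**Figure D2:**
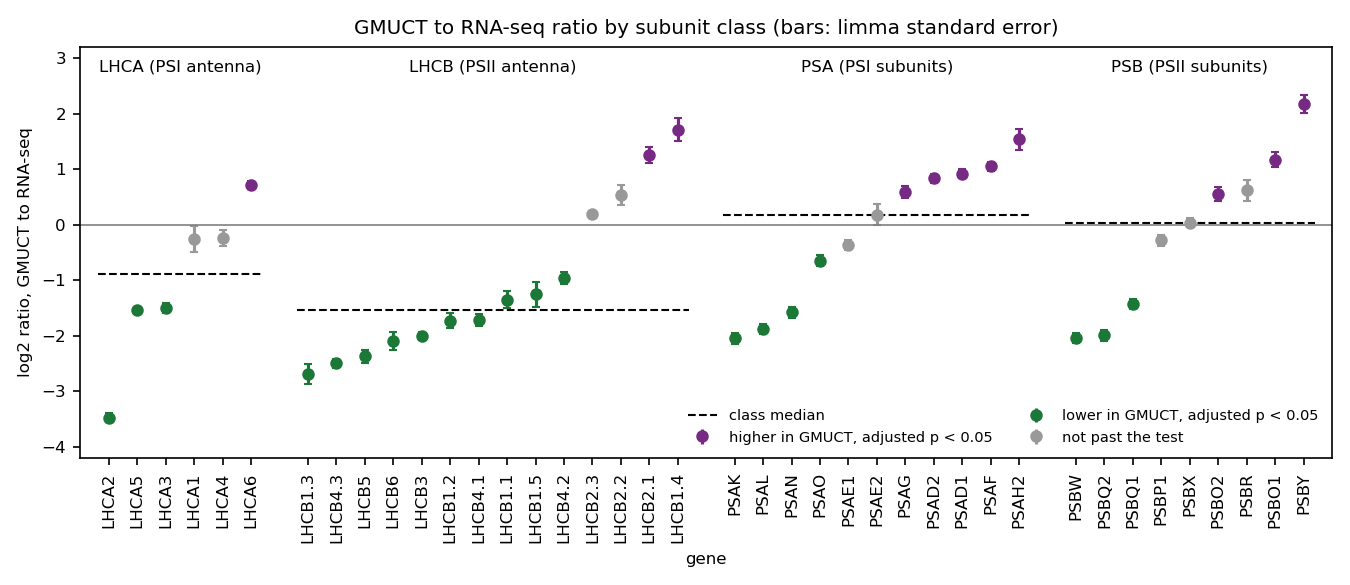
Log2 ratio of GMUCT to RNA-seq on the log2(RPKM + 0.5) scale for each gene, ordered within its class, with limma standard errors as bars, dashed lines for class medians, and colour for genes past an adjusted p of 0.05. Most LHCB genes sit below 0 around their median of -1.54, and PSA and PSB genes spread to both sides.

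Among the antenna proteins of photosystem I, LHCA1 and LHCA4 (AT3G47470), which pair in the antenna belt, had GMUCT levels near their mRNA levels. LHCA1 (AT3G54890) had 2252 and 1880 RPKM in RNA-seq against 1719 RPKM in GMUCT, and LHCA4 had 1255, 1334 and 1090 RPKM. Their log2 ratios of -0.26 (SE 0.23; limma adjusted p = 0.393) and -0.25 (SE 0.14; limma adjusted p = 0.232) did not pass the test. LHCA2 and LHCA3, the other members of the belt, lay far below. LHCA2 (AT3G61470) had 728 and 771 RPKM in RNA-seq against 66.5 RPKM in GMUCT, the lowest ratio of the 40 genes at -3.48 (SE 0.08; limma adjusted p = 0.0039). LHCA3 (AT1G61520) had 882, 898 and 313 RPKM (-1.50). The level of LHCA1 relative to LHCA2 within a library was therefore 3.09 and 2.44 in RNA-seq and 25.9 in GMUCT. The transcript that shares windows with LHCA2, AT5G28450, had 18.4, 23.6 and 32.1 RPKM. It was far below LHCA2 in RNA-seq but nearer to the 66.5 RPKM of LHCA2 in GMUCT. How reads were split between them is unknown, and its part in the LHCA2 ratio was not tested.

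LHCA5 and LHCA6 are minor proteins that link photosystem I to the chloroplast NADH dehydrogenase-like complex. They were the least expressed members apart from LHCB1.4. LHCA5 (AT1G45474) had 62.7 and 60.2 RPKM in RNA-seq against 20.8 in GMUCT and was called lower (-1.54). LHCA6 (AT1G19150) had 28.1 and 26.2 RPKM in RNA-seq against 44.7 in GMUCT and was the only LHCA gene called higher (0.71, SE 0.07; limma adjusted p = 0.0113). GMUCT lay outside both RNA-seq values for each of them, on opposite sides.

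LHCB1, LHCB2 and LHCB3 form the trimers of the major light-harvesting complex, and the sums over the LHCB1 and LHCB2 copies lay on opposite sides. The LHCB1 copies summed to 9395 and 9754 RPKM in the RNA-seq libraries and to 3003 RPKM in GMUCT, 3.19-fold less. The LHCB2 copies summed to 2970 and 2926 RPKM in RNA-seq and to 5108 RPKM in GMUCT, 1.73-fold more. In a given library, the LHCB1 sum was 3.16 and 3.33 times the LHCB2 sum in RNA-seq but 0.588 times in GMUCT. This ratio within a library does not depend on how libraries are scaled to each other. Differences between families and between copies are given as values and were not tested; an exact permutation test over 3 libraries cannot give a p below 0.333.

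Within LHCB1 the 4 abundant copies were all lower in GMUCT and the rare copy was higher. LHCB1.3 (AT1G29930), the most abundant mRNA of the set, had RNA-seq levels of 3551 and 3483 RPKM against 543 RPKM in GMUCT (log2 ratio -2.70, SE 0.18; limma adjusted p = 0.0071). LHCB1.5 (AT2G34420) had 3281, 3414 and 1397 RPKM (-1.26, SE 0.22; limma adjusted p = 0.0289), a call that ended with a pseudocount of 0.1 (adjusted p = 0.0626) or with no filter (adjusted p = 0.0992). LHCB1.1 (AT1G29920) had 1465, 1631 and 604 RPKM (-1.35), and LHCB1.2 (AT1G29910) had 1056, 1194 and 338 RPKM (-1.73). LHCB1.4 (AT2G34430) was rare, with 41.5 and 31.8 RPKM in RNA-seq against 120 RPKM in GMUCT (1.71, SE 0.21; limma adjusted p = 0.0159), and omitting the low-value filter ended this call (adjusted p = 0.0513).

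The make-up of the family therefore differed between the assays. LHCB1.3 made up 37.8% and 35.7% of LHCB1 in RNA-seq but 18.1% in GMUCT, where LHCB1.5 led with 46.5% after 34.9% and 35.0% in RNA-seq. LHCB1.4 went from 0.442% and 0.326% to 4.00%. Across the shared intergenic region on chromosome 2, whose promoter windows are printed above, the LHCB1.5 level was 79.1 and 107.5 times that of LHCB1.4 in RNA-seq and 11.6 times in GMUCT. Across the region on chromosome 1, LHCB1.3 was 2.42 and 2.14 times LHCB1.1 in RNA-seq and 0.898 times in GMUCT. In BLAST searches 62.6% of LHCB1.1, 68.4% of LHCB1.2 and 67.6% of LHCB1.3 matched another place in the genome at 95% identity or more. The split of the chromosome 1 copies is therefore uncertain. LHCB1.4 and LHCB1.5 share 13.7% and 17.3% of their windows, with each other as main partner. Their split, and with it the small share of LHCB1.4, is uncertain too.

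LHCB2 has the phosphorylation site that is central to state transitions, in which antenna moves between the photosystems. LHCB2.1 (AT2G05100) had 979.8 and 988.6 RPKM in RNA-seq against 2351 RPKM in GMUCT (1.26, SE 0.14; limma adjusted p = 0.0137). LHCB2.2 (AT2G05070), the highest of the 40 genes in GMUCT, had 1731, 1674 and 2460 RPKM and was not called (0.53; limma adjusted p = 0.101), although it was with libraries centred on their median (adjusted p = 0.0293) and without the variance trend (0.0199). LHCB2.3 (AT3G27690) had 259, 263 and 297 RPKM (0.18; limma adjusted p = 0.0948) and was called only with centring (adjusted p = 0.0298). All 3 copies thus had their GMUCT value above both RNA-seq values, and 1 of them passed the test. LHCB2.1 and LHCB2.2 share windows of 50 bases, so their split is uncertain, whereas LHCB2.3 shares none.

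The 6 LHCB genes outside the LHCB1 and LHCB2 families were all called lower in GMUCT. LHCB3 (AT5G54270), the remaining trimer component, had 644 and 635 RPKM in RNA-seq against 158 RPKM in GMUCT (-2.01). LHCB5 (AT4G10340) and LHCB6 (AT1G15820), monomeric linkers between the trimers and the photosystem II core, had 1489, 1529 and 290.0 RPKM (-2.38) and 753, 908 and 193 RPKM (-2.10). None of these genes has a shared window of 50 bases. The LHCB4 copies, which encode a further monomeric linker, were lower to different degrees. LHCB4.2 (AT3G08940) had 716, 775 and 381 RPKM (-0.97, SE 0.11; limma adjusted p = 0.0134), LHCB4.1 (AT5G01530) had 672, 731 and 213 RPKM (-1.72), and LHCB4.3 (AT2G40100) had 148, 162 and 26.9 RPKM (-2.50, SE 0.09; limma adjusted p = 0.0046). LHCB4.2 and LHCB4.1 had nearly equal mRNA levels, with a ratio of 1.07 and 1.06 in RNA-seq, but a ratio of 1.79 in GMUCT. LHCB4.3 made up 9.61% and 9.70% of the family in RNA-seq and 4.34% in GMUCT.

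**Figure D3:**
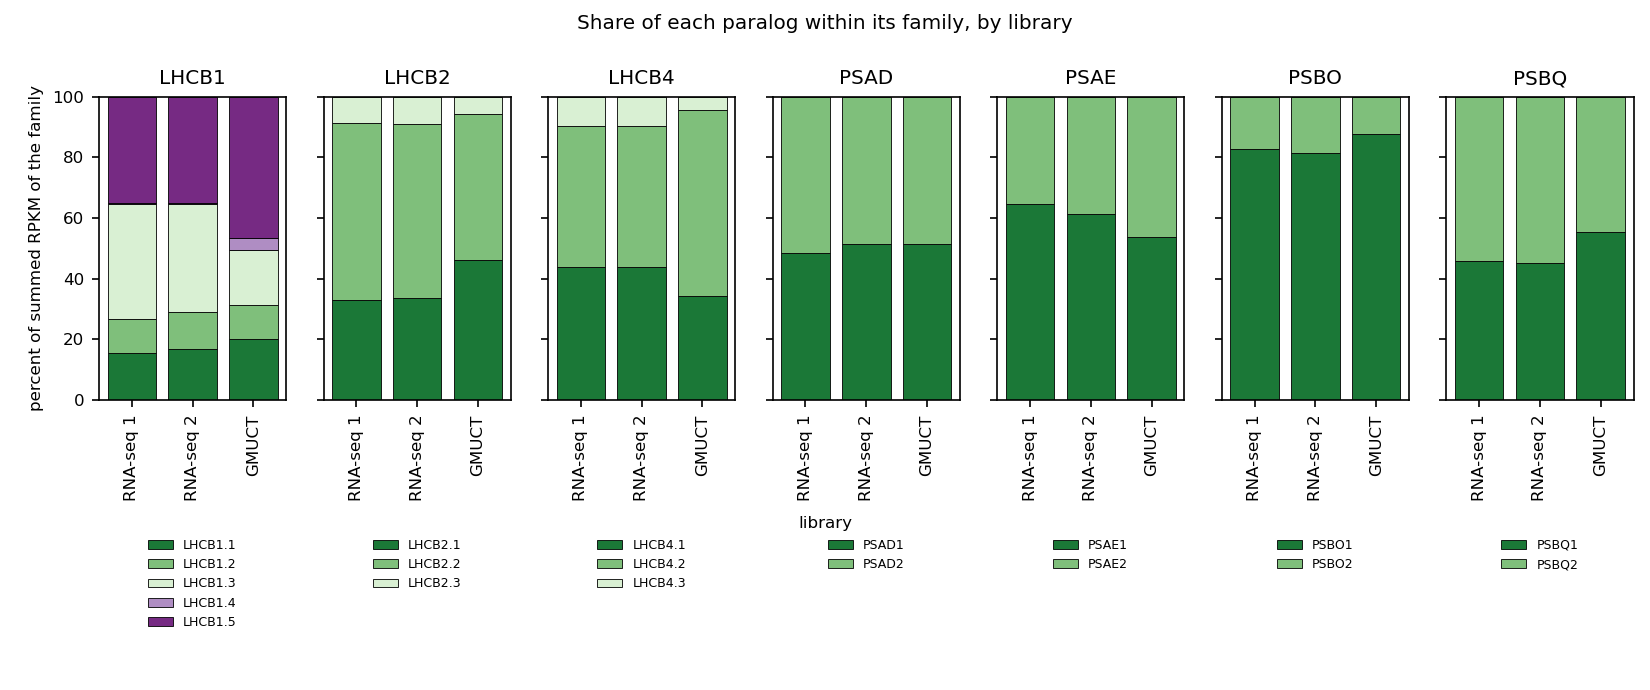
Percent of the summed RPKM of a family that each paralog held in RNA-seq library 1, RNA-seq library 2 and GMUCT, as stacked bars for the 7 families with more than 1 gene. The RNA-seq bars match closely, the GMUCT bars differ most for LHCB1, where LHCB1.3 holds 18.1%, and the PSAD bars are nearly the same in all libraries.

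The PSA genes separated by subunit. PSAD1, PSAD2, PSAF, PSAG and PSAH2 were called higher in GMUCT, while PSAK, PSAL and PSAN were at least 2-fold lower and PSAO was called lower. PSAD and PSAE form the docking site of ferredoxin on the stromal face. PSAD1 (AT4G02770) had 267 and 284 RPKM in RNA-seq against 521 RPKM in GMUCT (0.92, SE 0.08; limma adjusted p = 0.0098), and PSAD2 (AT1G03130) had 285, 267 and 491 RPKM (0.83, SE 0.08; limma adjusted p = 0.0117). The PSAD copies had similar ratios, and PSAD1 was 0.936, 1.07 and 1.06 times PSAD2 in the 3 libraries. PSAE1 (AT4G28750) had 261, 284 and 212 RPKM (-0.36; limma adjusted p = 0.0544) and PSAE2 (AT2G20260) had 144, 180 and 182 RPKM (0.18; limma adjusted p = 0.448), and neither passed the test. PSAE2 was -0.56 with the length trend removed, a change of sign without a call, while PSAE1 was called lower then (adjusted p = 0.0126) and at a filter of 5 RPKM (adjusted p = 0.0270).

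PSAF (AT1G31330), which binds plastocyanin on the lumenal side, had 389 and 399 RPKM in RNA-seq against 819 RPKM in GMUCT (1.05, SE 0.08; limma adjusted p = 0.0084). PSAN (AT5G64040), another lumenal subunit, was on the opposite side with 517, 558 and 179 RPKM (-1.58). PSAK and PSAG are similar membrane proteins at the rim of the complex, and they too were on opposite sides. PSAK (AT1G30380) had 1045, 1108 and 259 RPKM, the lowest ratio of the class (-2.05, SE 0.10; limma adjusted p = 0.0056). PSAG (AT1G55670) had 240, 267 and 379 RPKM (0.58; limma adjusted p = 0.0303), a call that ended with the length trend removed (0.15, adjusted p = 0.287) or with no filter (adjusted p = 0.0694). PSAK was 2.69 and 2.78 times PSAF in RNA-seq and 0.317 times in GMUCT, so the order of these subunits turned over.

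PSAH, PSAL and PSAO make up the side of photosystem I to which antenna trimers bind in state transitions. PSAL (AT4G12800) had 476 and 510 RPKM in RNA-seq against 133 RPKM in GMUCT (-1.88), and PSAO (AT1G08380) had 429, 470 and 286 RPKM (-0.65), whose call was lost without the filter (adjusted p = 0.0538). PSAH2 (AT1G52230) had 153, 192 and 499.99 RPKM, the highest ratio of the class (1.54, SE 0.19; limma adjusted p = 0.0155). PSAH1, its paralog outside the 40 genes and singled out after its values were seen, had 129, 147 and 91.5 RPKM and was lower (-0.59; limma adjusted p = 0.0332). The 2 genes for the same subunit were therefore called in opposite directions in the main setting. The PSAH1 call was not followed under other settings.

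PSB genes showed the highest single ratio of the set. PSBY (AT1G67740), a small membrane protein of photosystem II, had 230 and 189 RPKM in RNA-seq against 941 RPKM in GMUCT (2.17, SE 0.17; limma adjusted p = 0.0082). The other small membrane proteins differed from it. PSBW (AT2G30570) had 255, 281 and 64.2 RPKM, the lowest ratio of the class (-2.05, SE 0.09; limma adjusted p = 0.0052), and PSBX (AT2G06520) had 431, 449 and 451 RPKM without a call (0.03; limma adjusted p = 0.737). PSBX was called lower with the length trend removed (-0.48, adjusted p = 0.0260).

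PSBO, PSBP and PSBQ are the extrinsic proteins that shield the oxygen-evolving manganese cluster on the lumenal side, and their genes went separate ways. PSBO1 (AT5G66570), the major copy for the manganese-stabilizing protein, had 872 and 934 RPKM in RNA-seq against 2035 RPKM in GMUCT (1.17, SE 0.14; limma adjusted p = 0.0155). PSBO2 (AT3G50820) had 184, 211 and 289 RPKM (0.55; limma adjusted p = 0.0449), a call lost with a pseudocount of 0.1 (adjusted p = 0.0508), without the filter (0.0986), with the length trend removed (0.0654) and without the variance trend in limma (0.0531). PSBO1 was 4.75 and 4.42 times PSBO2 in RNA-seq and 7.04 times in GMUCT. PSBP1 (AT1G06680) had 302, 336 and 261 RPKM (-0.29) and did not pass. Both PSBQ copies were lower, with PSBQ1 (AT4G21280) at 187, 206 and 72.2 RPKM (-1.44, SE 0.09; limma adjusted p = 0.0065) and PSBQ2 (AT4G05180) at 222, 248 and 58.5 RPKM (-1.995, SE 0.10; limma adjusted p = 0.0056). PSBQ2 was the more abundant copy in both RNA-seq libraries and PSBQ1 in GMUCT.

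PSBR (AT1G79040), a subunit that helps to hold the extrinsic proteins, was among the highest in both assays. Its RNA-seq levels were 1332 and 1498 RPKM and its GMUCT level 2172 RPKM, and the ratio of 0.62 did not pass the test (limma adjusted p = 0.0787). It passed at a filter of 5 RPKM (adjusted p = 0.0356), with centred libraries (0.0160) and without the variance trend (0.0350). PSBR was 5.22 and 5.33 times PSBW in RNA-seq and 33.8 times in GMUCT.

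Structural features of the transcripts, which played no part in choosing the genes, were set beside the ratios. The 40 transcripts were short, from 607 to 1508 nt with a median of 1172 nt, against 1645 nt over 20071 annotated genes tested. They had a median of 3 exons, against 4, and a median GC content of 44.3%, against 41.5%. The 10 genes with 1 exon comprised 5 called higher, 4 called lower and 1 uncalled, and the 30 with more exons comprised 6, 16 and 8. Over all tested genes 32.1% were called higher and 36.9% lower, and shares by exon number were not computed. The genes with 1 exon were the LHCB1 copies, PSAD1, PSAD2, PSAG, PSBX and PSBY, so exon number and family cannot be told apart. Across the 40 genes Pearson's r of the log2 ratio was -0.35 with log2 RNA-seq level, -0.16 with transcript length, -0.23 with exon number and -0.09 with GC content. Over 20067 tested protein-coding genes the same values were -0.46, -0.33, -0.28 and -0.13. All these points share the same 3 libraries, the RNA-seq level is also the denominator of the ratio, and the correlations are a description across genes. Genes with CCAAT in the promoter window had a median ratio of -0.81 (26 genes), and those without it -0.32 (14 genes). Most genes with CCAAT were antenna genes and most without it were PSA or PSB genes, so motif and class cannot be told apart. The antenna genes without CCAAT, LHCB6 and LHCA5, had ratios of -2.10 and -1.54.

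Other nuclear genes of photosynthesis also lay on both sides. The counts of the 4 lists that follow stand against 69.0% of all tested genes called, 36.9% lower and 32.1% higher. The lists' called shares were 72.2%, 69.2%, 68.4% and 81.8% in the order given. PSBP2 and CGA1, which are discounted below, are still included in the counts, shares and medians of the first and last list. Of 18 further photosystem and antenna-like genes 9 were called lower in GMUCT, 4 higher and 5 uncalled, with a median log2 ratio of -0.39. The lowest were ELIP2, an early light-induced protein, at 65.4, 65.2 and 20.1 RPKM (-1.68), and STN8, a kinase of photosystem II proteins, at 20.9, 18.6 and 6.73 RPKM (-1.48). The highest were PSBP2, a rare paralog of PSBP1, at 0.960, 0.810 and 5.53 RPKM (2.12) and LIL3.1, an antenna-like protein of chlorophyll synthesis, at 99.98, 89.8 and 275 RPKM (1.53). PSBP2 was under 1 RPKM in both RNA-seq libraries and passed the filter only through GMUCT, so it lends no weight to the count of higher genes. Its call held with no filter (limma adjusted p = 0.0193), and its ratio was 2.52 and 1.79 at pseudocounts of 0.1 and 1.

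Of 13 genes of electron transport and ATP synthase 7 were called lower, 2 higher and 4 uncalled, with a median of -0.63. PETM, a small subunit of the cytochrome b6f complex, had 318, 341 and 47.0 RPKM (-2.80), and PGR5, a factor of cyclic electron flow, had 42.9, 54.6 and 7.08 RPKM (-2.69). On the high side ATPG, a subunit of the ATP synthase membrane part, had 149, 159 and 396 RPKM (1.36). PETE2, the major plastocyanin, had 1300, 1335 and 2113 RPKM (0.68; limma adjusted p = 0.0484), a call lost with a pseudocount of 0.1, without the filter and with the length trend removed (adjusted p = 0.0889, 0.112 and 0.0772). The docking subunit PSAF and its partner PETE2 were both above their RNA-seq values in GMUCT. PETE1, the other plastocyanin gene of the list, was singled out after its values were seen. It went the other way, with 98.4, 103 and 56.8 RPKM (-0.82; limma adjusted p = 0.0071).

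Of 20 chlorophyll synthesis genes 19 were tested, of which 9 were called lower, 4 higher and 6 uncalled, with a median of -0.23. CHLM, a methyltransferase of the magnesium branch, had 96.3, 103 and 28.5 RPKM (-1.78), and HEMA1, which starts the pathway, had 120, 114 and 57.5 RPKM (-1.02). GUN4, an activator of magnesium chelatase, had 55.7, 58.9 and 420.5 RPKM (2.87), above every member of the photosystem and antenna set, and GSA1 had 48.1, 44.8 and 197 RPKM (2.07). PORA, a protochlorophyllide reductase of dark-grown seedlings, stayed under the filter on low values at 0.08, 0.12 and 0.3 RPKM.

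Of 11 genes for antenna targeting and transcriptional regulation 5 were called lower, 4 higher and 2 uncalled, with a median of -0.04. GLK1, a transcription factor of photosystem and antenna genes, had 20.02, 20.13 and 7.42 RPKM (-1.38), and ALB3, the insertase that places antenna proteins in the thylakoid, had 54.4, 58.6 and 27.5 RPKM (-1.02). LTD, which guides antenna proteins through the stroma, had 28.5, 28.5 and 77.9 RPKM (1.43), and CGA1, a GATA factor, had 0.420, 0.550 and 3.36 RPKM (1.97). CGA1 likewise passed the filter only through GMUCT and lends no weight to the count. It was called with no filter too (limma adjusted p = 0.0220), and its ratio was 2.57 and 1.56 at pseudocounts of 0.1 and 1. The differences between these lists and the 40 genes were not tested.

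**Figure D4:**
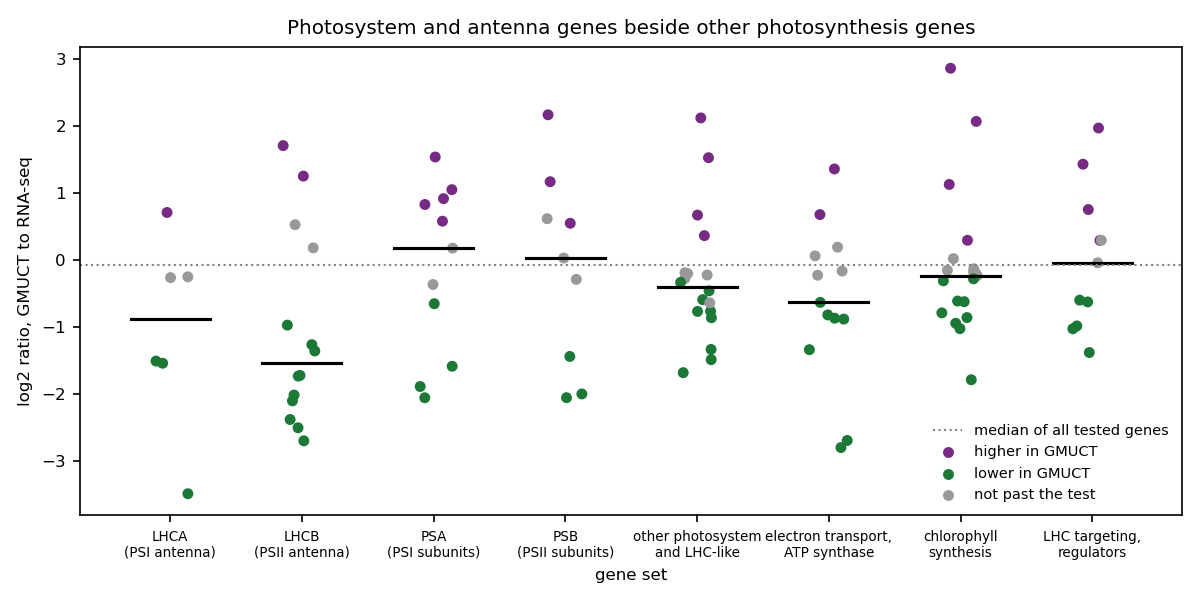
Log2 ratio of GMUCT to RNA-seq for each tested gene of the 4 classes and of 4 further photosynthesis lists, with a black line for each median, a dotted line for the median of all tested genes (-0.07), and colour for genes past an adjusted p of 0.05. The LHCB median of -1.54 is the lowest of the 8 medians drawn, and every set has genes on both sides of 0.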

How the data were processed

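The authors deposited 1 table per library with a gene identifier and an RPKM value, without header. Per the submitters' processing notes, reads were trimmed with cutadapt 1.4.2 and aligned with STAR 2.4.0 to TAIR10. The sources used here do not give the counting tool, annotation, gene lengths or handling of multiple matches. A gene missing from a table was set to 0.

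Kept for testing were 20214 genes with at least 1 RPKM on average over the assays, each assay weighing equally. Values were compared as log2(RPKM + 0.5), which understates ratios of low genes, with limma 3.58.1 (R 4.3.3, eBayes with trend, two-sided). Adjusted p-values are Benjamini-Hochberg over all tested genes. The procedure was tested on simulated data. When few genes were made to differ it missed all of them, a lack of power. When many were made to differ it called most of them. Such data cannot show how much the real GMUCT library varies. Depth was estimated from RPKM times length, whose commonest low value was taken as 1 read. Genome, transcripts and promoters came from RefSeq TAIR10.1, matched by locus identifier, with BLAST 2.17.0 for copies (at least 95% identity over 50% of the transcript).

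The members, lists and named genes were chosen with earlier results of these data known. All 40 members may be named. Of each other list, the 2 highest and 2 lowest ratios are named. PORA, which was not tested, is named besides, and PSAH1 and PETE1 were added after their values were seen. The pairs LHCA1 to LHCA2, PSAK to PSAF and PSBR to PSBW are not paralogs and were not among the planned paralog comparisons. Each pair includes the lowest ratio of its class, so a shift between the assays was built into the choice. Alternatives covered pseudocount, filter, centring, length trend, variance trend, fold threshold, copies and leaving out each RNA-seq library.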

Additional observations from a re-analysis of the deposited data

How the results depend on the processing

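The counts of the 40 genes called stayed within 1.5 times under all alternatives run, at 8 to 14 higher and 18 to 22 lower. Without the 4 genes that have a near-identical copy they were 11 higher and 17 lower. LHCA2, LHCB1.4, LHCB1.5 and LHCB2.1, which share windows of 50 bases with another gene, were kept in those counts. LHCB2.1, called higher, was matched over 49.7%, just under the limit of 50%. At 4-fold, 1 gene was above and 6 were below both RNA-seq libraries, and without each RNA-seq library 6 were above and 18 to 19 below at 2-fold. Centring raised all ratios by 0.13 on the log2 scale, which gave medians of -0.76 for LHCA, -1.41 for LHCB and 0.16 for PSB. Removing the length trend gave medians of -1.04 for LHCA, -1.66 for LHCB, -0.56 for PSA and -0.39 for PSB, and put PSAE2 at -0.56 and PSBX at -0.48, so these signs depend on that choice. Without an RNA-seq library the medians ranged from -0.94 to -0.90 (LHCA), -1.61 to -1.46 (LHCB), 0.02 to 0.34 (PSA) and 0.00 to 0.06 (PSB). Differences of log2 ratio between copies with the length trend removed were 0.91 for LHCB2.1 minus LHCB2.3 (1.07 before), 1.51 for LHCB4.2 minus LHCB4.3 (1.53 before, and 1.55 and 1.51 at pseudocounts of 0.1 and 1), 0.22 for PSAE2 minus PSAE1 (0.54 before) and 0.44 for PSBQ1 minus PSBQ2 (0.56 before). The PSAD difference changed sign between RNA-seq libraries, from -0.01 to 0.18. Genes of electron transport called higher were 1 with a pseudocount of 0.1, without the filter or with the length trend removed, and targeting genes called higher were 2 without the filter. The causes were not tested. Without an RNA-seq library limma has no residual degrees of freedom, so its calls were not recomputed. No paired analysis was possible because the labels number the RNA-seq libraries only and give the GMUCT library no replicate number.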
